A study of Mus musculus with 2 samples.

Results

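The CHD (chromodomain helicase DNA-binding) family holds ATP-driven chromatin remodellers, enzymes that slide, space or exchange nucleosomes and that carry paired chromodomains next to a SNF2-type ATPase. Its members fall into 3 subfamilies. Chd1 and Chd2 act at transcribed genes, and Chd1 is known for keeping the chromatin of ES cells open. Chd3, Chd4 and Chd5 carry PHD fingers and serve as the ATPase of NuRD, a complex that also removes acetyl groups from histones. Chd6, Chd7, Chd8 and Chd9 are large proteins, of which Chd7 binds enhancers of ES cells and Chd8 binds β-catenin. The BAF complex studied here is a separate SNF2-type remodeller, and Baf53a and Baf53b are alternative actin-related subunits of it, the latter known from neurons.

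CHD members were taken as the gene probes whose RefSeq accession belongs to 1 of the 9 genes Chd1 to Chd9. The rule found 11 probes of 7 genes among 39411 probes and 20823 named genes with a usable spot on both arrays. Chd2 had 4 probes, Chd6 had 2, and Chd1, Chd4, Chd5, Chd8 and Chd9 had 1 each. No probe matched Chd3 or Chd7 through the accessions of the gene table. Probes listed under other or older accessions were not resolved, and these 2 genes were not analysed here. Gene expression was compared between 2 cultures of E14-derived Baf53a cKO ES cells, 1 rescued with an expression vector for Baf53a and 1 with a vector for Baf53b. In both cultures each allele of Baf53a was mutated by CRISPR/Cas9, and an inducible resistant Baf53a that had kept the cells alive was shut off by 6 days of Tet at 1 μg/mL, in medium with serum and LIF. The rescuing cDNAs were Myc-tagged and carried by the pCAGIP-Myc vector. All cells descended from 1 mutant clone, and RNA of 1 culture per condition was hybridised to 1 array, so no difference has a replicate check and no test or p-value is given.

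The signal of each spot was its brightness after background subtraction and spatial detrending. Levels are given as log2 of this signal with the 75th percentile of each array set to 0, which lay at a signal of 1161 for Baf53a and 1128 for Baf53b. Differences are Baf53b- minus Baf53a-expressing cells on the log2 scale. On both arrays 29247 probes were well above background, and no spot was saturated. The labels were checked on the exchanged genes. Actl6b, the gene of Baf53b, was well above background only in the culture labelled Baf53b-expressing, where its probe was at least 14.5-fold higher. For such a bound the other array is given its lowest signal well above background, or the probe's own signal where that is higher. Actl6a, the gene of Baf53a, had levels of 1.71 and 1.67 in the cultures labelled Baf53a- and Baf53b-expressing, a difference of -0.04, so its probe showed no excess that bears out the Baf53a label. Whether that probe reads the vector's cDNA, the mutated gene or both was not examined here. The ES cell markers Pou5f1 (levels 4.55 and 4.41), Nanog (-0.78 and -0.84) and Sox2 (1.92 and 1.98) were well above background in Baf53a- and Baf53b-expressing cells.

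All 11 CHD probes were well above background in both cultures, and their differences between the cultures ran from -0.13 to 0.13 on the log2 scale. Of the CHD genes 0 of 7, and of the CHD probes 0 of 11, were at least 2-fold apart. The share of all genes at least 2-fold apart was 0.193%, and that of all probes 0.253%, so that a count of 0 is near this background. At a difference of 0.5 the CHD count was also 0 of 11 probes, against 3.06% of all probes. The 7 gene values ran from -0.01 for Chd4 to 0.12 for Chd1, with a median of 0.03 and an SD between the genes of 0.0429. Over all 16608 genes with a probe well above background on both arrays the median was -0.00323 and the SD 0.188. Differences of dim probes spread more widely than those of bright probes, and these SDs were not matched for brightness.

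**Figure D1:**
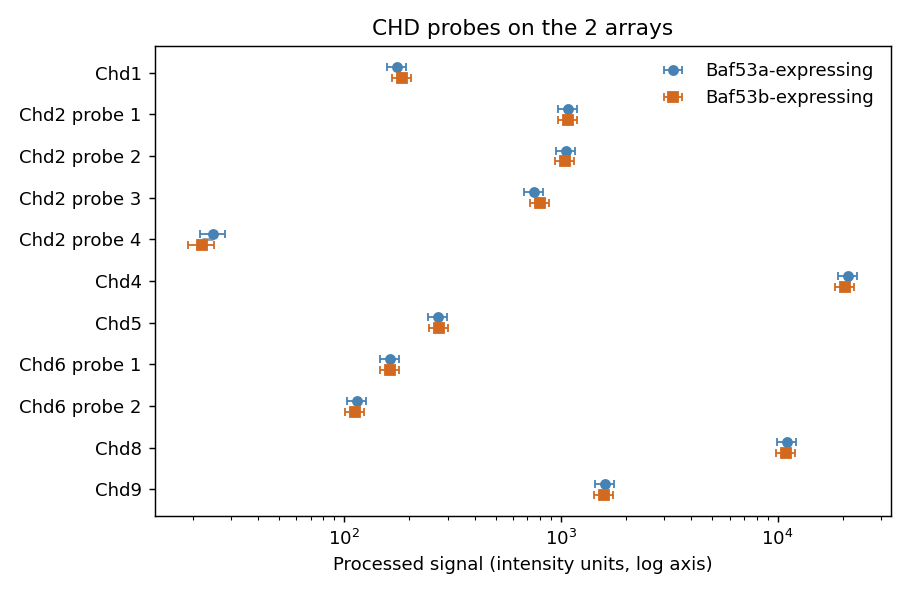
Processed signal of each CHD probe (x axis, intensity units on a log axis) on the array of Baf53a-expressing cells (circles) and of Baf53b-expressing cells (squares), 1 array each; bars are the error that the scanner software gave for the spot. The bars of both arrays overlap for all 11 probes, as they do for 91.7% of all probes well above background, from Chd2 probe 4 at 24.8 and 22.0 to Chd4 at 21130 and 20385; heights of different probes are not comparable.

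Chd1, the remodeller that travels with elongating RNA polymerase II and binds methylated histone tails at active genes, had a signal of 174 with Baf53a and 184 with Baf53b (probe A_52_P329250). After scaling, Chd1 differed by 0.12, or 1.09-fold, the highest gene value of the family. It rests on 1 probe, at 0.123, and 1 of the 4 probes averaged for Chd2 was higher, at 0.135. The scanner software gave the signal of Chd1 an error of 10.1% on each array, which makes 0.21 on the log2 scale for a difference.

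Chd2, the close relative of Chd1 whose loss of 1 copy in humans is known for epilepsy, was the member with the most probes. In Baf53a- and Baf53b-expressing cells, the Chd2 signals were 1075 and 1081 for probe 1 (A_65_P01643), 1052 and 1039 for probe 2 (A_55_P2175469), 750 and 800 for probe 3 (A_51_P294113) and 24.8 and 22.0 for probe 4 (A_66_P101171). The differences of these Chd2 probes were 0.05, 0.02, 0.13 and -0.13, so that the probes of 1 gene disagreed in direction. Their mean was 0.02 with an SD between probes of 0.111 (n = 4 probes, which share the same RNA and are no replicates). With all probes well above background sorted into 5 brightness classes of equal size, probe 4 lay in the dimmest class and the other Chd2 probes in the second brightest. Under a stricter filter that dropped the dim probe, the mean of Chd2 was 0.07. Where each probe lies in the Chd2 transcript was not examined here.

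Chd4, the main ATPase of NuRD in ES cells, had a signal of 21130 with Baf53a and 20385 with Baf53b (probe A_55_P2020373). With the 75th percentile at 0, Chd4 was the only CHD gene whose value lay below 0, at -0.01 or 1.01-fold lower, and quantile normalization turned it to 0.06. Chd5, the NuRD ATPase best known from brain and testis, was well above background in both cultures, with a signal of 269 and 274 (probe A_55_P1978371). Its difference was 0.07, or 1.05-fold, between the culture with the neuronal BAF subunit and the culture without it. Of the 5 neuron markers, 4 had a value above 0, with differences of 0.35 for Snap25, 0.25 for Rbfox3, 0.11 for Map2 and 0.10 for Syt1, and Tubb3 differed by -0.15. The median of these differences was 0.11, and their part in the Chd5 value was not tested. Over all genes measured, 49.1% had a value above 0. The Rbfox3 value was the mean of 2 of its 3 probes, at 0.13 and 0.37, and the Map2 value came from 1 of 2. The remaining probes were not well above background on both arrays. Map2 (levels -5.80 and -5.69) and Rbfox3 (-4.83 and -4.58), at their mean levels, lay in the dimmest class. There the median difference of all probes was 0.10. Snap25 and Tubb3 lay in the brightest class, where that median was -0.06.

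Of the third subfamily, Chd6, a remodeller linked to the oxidative stress response, had signals of 162 and 162 for probe 1 (A_52_P308507) and 115 and 112 for probe 2 (A_55_P2073457). Its differences were 0.04 and 0.01, with a mean of 0.02. Chd8, a high-confidence autism gene that binds β-catenin and CTCF, had a signal of 11076 with Baf53a and 10950 with Baf53b (probe A_51_P212630) and differed by 0.03. Chd9, described in bone-forming precursor cells, had a signal of 1591 and 1578 (probe A_55_P2025959) and differed by 0.03. With the 75th percentile at 0, the values of Chd6, Chd8 and Chd9 lay closer to 0 than that of Chd1. Whether probes of such related genes share signal was not examined here.

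**Figure D2:**
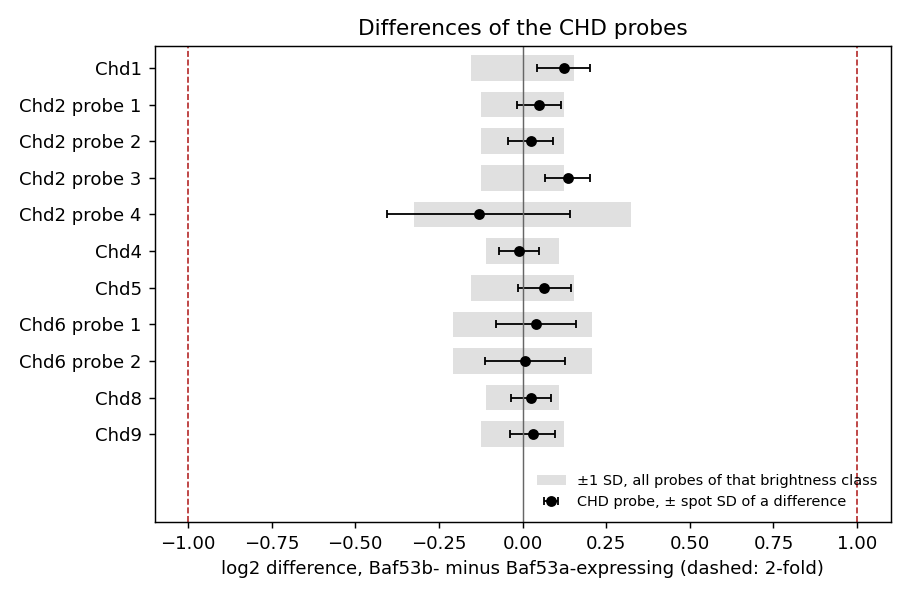
log2 difference of each CHD probe, Baf53b- minus Baf53a-expressing cells, 1 array each (x axis; dashed lines mark 2-fold); bars are the SD of a difference between 2 single spots of 1 probe at like brightness, and grey boxes reach 1 SD of all probe differences in the same brightness class to each side of 0. The 11 points run from -0.13 to 0.13, and 10 of them inside their grey box.

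The size of these differences was set against 3 measures of error. Each CHD probe was printed as 1 spot, so its own spot noise was not measured, and that of probes printed repeatedly was used. It gave an SD of a difference of 0.274 in the dimmest class and 0.0590 in the brightest, and 9 of the 11 CHD probes lay within the SD of their own class, against 47.3% of all probes. The 2 probes outside it were Chd1 (0.12 against 0.0799) and Chd2 probe 3 (0.13 against 0.0664), both higher in Baf53b-expressing cells. Taken from the median difference of their class in place of 0, 7 of 11 lay within the spot SD, against 51.6% of all probes, and Chd8 (0.09 against 0.0590) and Chd2 probe 1 (0.07 against 0.0664) were then outside it too. All 11 lay within the error of a difference that the scanner software gave, 0.20 to 0.27, as did 81.3% of all probes by their own errors. Within 1 SD of the probes in their own class lay 10 of 11 CHD probes, against 70.7% of all probes, with Chd2 probe 3 outside (0.13 against 0.124). The spot SD holds noise between spots, and the class SD holds the spread between probes. The software's error was close to a fixed share of the signal. It was 10.0% for Chd4 and 10.1% for Chd1 on both arrays, and 13.2% and 13.6% for the dim Chd2 probe 4. Differences smaller than that share therefore fall within it. None of the measures holds the spread of a second culture, so none of these probes was shown to differ between the conditions.

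**Figure D3:**
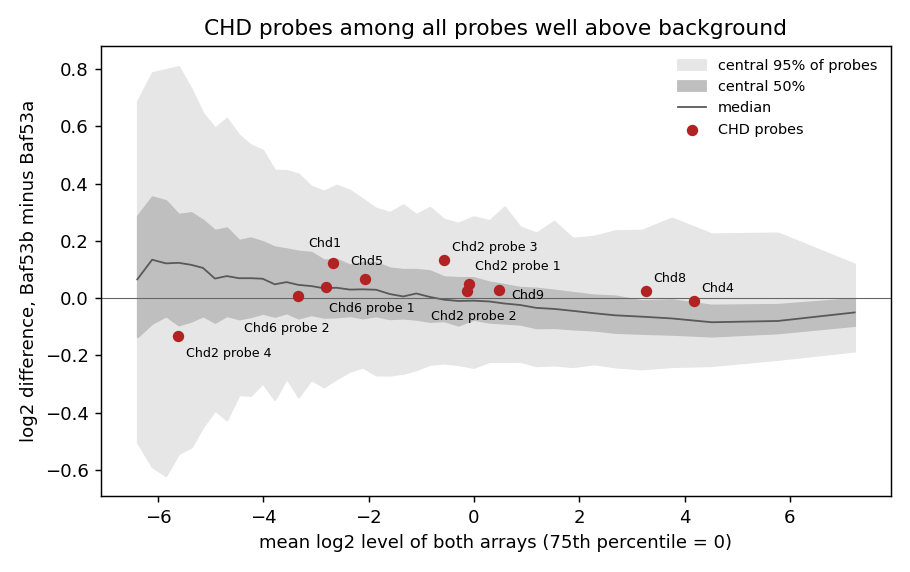
log2 difference (y axis) against the mean log2 level of both arrays (x axis, 75th percentile at 0) for all probes well above background, drawn as the median and the central 50% and 95% in 40 groups of brightness, with the 11 CHD probes as points. All 11 CHD probes lie inside the central 95% of probes of like brightness and 7 inside the central 50%.

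The direction of 5 of the 7 CHD values depended on the scaling, whereas Chd1 (0.07 to 0.14) and Chd5 (0.01 to 0.11) lay above 0 in every setting run. With the 75th percentile set to 0, 6 CHD genes had a value above 0 and 1 below it, whereas centring each array on its median gave 2 above and 5 below and quantile normalization gave 5 above and 2 below. Over all genes measured, 49.1% were higher in Baf53b-expressing cells with the 75th percentile at 0. Centring on the median moved the median of all genes as well, from -0.00323 to -0.0543, so that shift was not particular to CHD genes. Taken relative to the median of all genes, the CHD median lay 0.03 higher, and over all settings run it lay 0.0176 to 0.0526 higher. The median difference of all probes also moved with brightness, from 0.10 in the dimmest class to -0.06 in the brightest. Against the median of their own class, 8 CHD probes were higher and 3 lower, with Chd4 at 0.05 and Chd8 at 0.09 above it.

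Partners of the CHD enzymes were read beside them, 28 genes on 4 lists, and all were well above background in both cultures. Of these partners 0 of 28 were at least 2-fold apart, against 0.193% of all genes measured. Of the 28, 27 differed by less than 0.2, against 80.5% of all genes measured, of every brightness. These shares were not matched for brightness, and the SD of probe differences was 0.324 in the dimmest class and 0.108 in the brightest. The 12 genes of the NuRD complex, in which Chd3, Chd4 or Chd5 is the ATPase, had a median of 0.00286, with 6 higher and 6 lower. The highest NuRD value was that of Rbbp4, a histone-binding subunit, at 0.28, but its probes gave -0.03 and 0.59. The lowest was that of Mta2, a scaffold of the deacetylase core, at -0.19 from 1 probe. Mbd3, which brings the NuRD complex of ES cells together, differed by -0.09, and the deacetylases Hdac1 and Hdac2 by -0.03 and 0.02, 3 genes named after their values were seen.

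The 3 ChAHP genes, whose products bind Chd4 outside NuRD, had a median of 0.05, from 0.02 for Adnp, a zinc finger protein, to 0.10 for Cbx1, an HP1 protein. The 7 genes of FACT and the Paf1 complex, which work with Chd1 during elongation, had a median of 0.00419. Their values ran from -0.08 for Paf1 to 0.04 for Ctr9, both of them subunits of the Paf1 complex. The 6 partners of Chd8 had a median of -0.05, from -0.11 for Ctnnb1, which encodes β-catenin, to 0.05 for Ctcf, an insulator protein. That median became 0.0134 under quantile normalization.

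The other ATPases of the SNF2 type gave the nearest comparison with the CHD enzymes. Of 20 listed, 19 had a probe, and Srcap was not analysed here. Their median was 0.01, with 10 higher and 9 lower, all 19 within 0.2 of 0, and 0 of them at least 2-fold apart. The highest value was that of Chd1l, a remodeller recruited by poly-ADP-ribose that shares its name but not its chromodomains with the family, at 0.12. The lowest was that of Rad54l, a recombination repair motor, at -0.20. The CHD values spanned -0.01 to 0.12, against -0.20 to 0.12 for these ATPases. Over all genes measured, of every brightness, 49.1% were higher, 80.5% lay within 0.2 of 0 and 0.193% were at least 2-fold apart. A count of 0 of 19 ATPases at 2-fold is near that share.

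Some markers of other cell types had higher values than any CHD gene. The 4 primitive endoderm markers were all higher in Baf53b-expressing cells, by 0.21 (Gata6) to 0.40 (Dab2), as were the 4 trophoblast markers, by 0.15 (Hand1) to 0.44 (Krt8). Over all genes measured, 49.1% were higher. At their mean levels, Gata4, Gata6, Sox17, Cdx2 and Hand1 lay inside the central 95% of probes of like brightness. Dab2 lay at the upper edge of that range, which was 0.43 and 0.39 in the nearest groups of brightness. Krt8 (0.44 against an upper edge of 0.21) and Krt18 (0.32 against 0.23) lay above it. The mesoderm and fibroblast markers ran from -0.15 (Thy1) to 0.32 (Pdgfra, which primitive endoderm also expresses), and the 7 ES cell markers from -0.15 (Esrrb) to 0.07 (Sox2). All 18 markers of these other cell types, the neuron markers included, had a probe well above background in both cultures. Their part in the CHD values was not tested, and a change in the mix of cells cannot be told apart from a change per cell in these arrays.

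**Figure D4:**
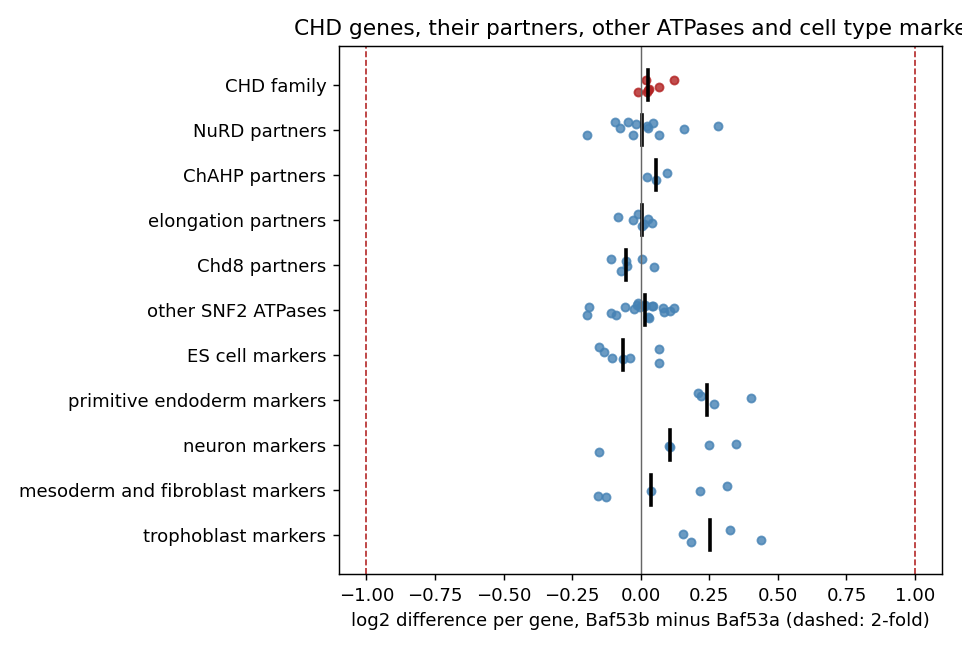
log2 difference per gene, Baf53b- minus Baf53a-expressing cells (x axis; dashed lines mark 2-fold), for the CHD genes, the lists of partners, the other ATPases and the cell type markers; a point is 1 gene, its vertical place within a row has no meaning, and a black line is the median of the list. The 7 CHD points lie between -0.01 and 0.12, and all primitive endoderm and trophoblast points lie to the right of 0.15.

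The sequence upstream of the CHD genes was described from RefSeq (GRCm38.p6), as context for genes that were measured well above background in both cultures. The table held 8 start sites of 5 of the genes, Chd4, Chd5, Chd6, Chd8 and Chd9. The 250 bases before a start are shown for Chd4, the widely used NuRD ATPase, at chr6:125095731-125095980 (+ strand), and for Chd5, its relative known from brain and testis, at chr4:152338401-152338650 (+ strand), with every CG dinucleotide in capitals.
Chd4: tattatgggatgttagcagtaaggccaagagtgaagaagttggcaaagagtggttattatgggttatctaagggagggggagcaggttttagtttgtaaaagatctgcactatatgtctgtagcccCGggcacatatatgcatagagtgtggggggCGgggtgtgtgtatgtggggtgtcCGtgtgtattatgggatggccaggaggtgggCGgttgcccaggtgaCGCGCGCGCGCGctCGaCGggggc
Chd5: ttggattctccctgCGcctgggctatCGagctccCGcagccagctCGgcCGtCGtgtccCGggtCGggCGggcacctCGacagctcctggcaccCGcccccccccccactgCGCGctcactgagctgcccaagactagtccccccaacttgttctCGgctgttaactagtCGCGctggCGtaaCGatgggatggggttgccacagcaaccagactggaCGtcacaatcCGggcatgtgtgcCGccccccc
The Chd4 window holds 12 CG dinucleotides and the Chd5 window 21, against a median of 6 over 32851 such windows of the mouse genome. In the Chd4 window shown, 9 of them lie in the 50 bases next to the start, against 3 in the Chd5 window shown. At their second starts, Chd4 held 23 CG dinucleotides and Chd5 held 22. The second Chd5 window, at chr4:152338404-152338653, is nearly the same sequence as the first. The order of Chd4 and Chd5 thus depended on the start taken for Chd4. Of the 8 CHD windows, 7 held 12 to 23 CG dinucleotides, and the second start of Chd9 held 1. The letters GGGCGG, the GC box, stood on either strand of 7 of the 8 windows, against 32.7% of all windows. CCAAT stood in 3 of 8, against 33.8%, and neither TATAAA (12.4% of all windows) nor CACGTG (6.02%) was found. Windows of 1 gene can overlap, in part for Chd4 and almost fully for Chd5, so the 8 windows are not 8 separate sequences. Matches of letters are a description of these windows.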

How the data were processed

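RNA of 1 culture per condition was labelled with Cy3 and hybridised to Whole Mouse Genome arrays of 1 colour. The deposited intensity of each spot, subtracted for background and detrended over the slide, came from the authors' run of Feature Extraction 11.0.1.1, on a design annotated on mm9. They also deposited a table of 30488 probes, each value a ratio; all 30479 values compared per array equalled the probe's signal divided by 1 number per array within 0.1%, 1160 and 1126, so the scale is linear and its centring is close to the 75th percentile.

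Control spots and spots marked as outliers were left out, the log2 signals of a probe's spots were averaged, and each array was shifted to a 75th percentile of 0. The flag for well above background was required on at least 50% of a probe's spots. A gene's value is the mean of its probes well above background on both arrays. Genes were named through RefSeq accessions (GRCm38.p6, used for names and for the upstream sequences), which matched 27410 probes. The fold for counts was 2, and 5 brightness classes were formed over probes well above background.

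Named were all CHD members, the highest and lowest gene of each list of partners or other ATPases, label-check genes and defining markers. The members, lists and rules were chosen with earlier results of these data known. With 1 array per condition no test was run, and the number of arrays limits the precision. The alternatives were 4 of scaling or background correction (quantile, median, cyclic loess, normexp with an offset of 50 on the median signal) and 6 of filters, flags, outliers, the authors' table and the probe per gene. The steps were tested on simulated data with planted changes larger than 2-fold, so that test does not bear on differences as small as those of the CHD genes. The tools were R 4.3.3, limma 3.58.1, Python 3.11.15, matplotlib 3.10.9, pandas 2.3.3 and numpy 2.4.6.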

Additional observations from a re-analysis of the deposited data

How the results depend on the processing

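Under the 10 alternatives run, 0 CHD genes and 0 genes of the partner and ATPase lists were at least 2-fold apart, and no CHD probe differed by more than 0.246 in either direction. Of 70 values of single CHD genes, 68 moved by less than the spot SD of their brightness class. Chd2 has probes in 2 classes, and the larger SD, 0.274 from its dim probe, was used for it. The other 2 were under quantile normalization, Chd4 at 0.06 and Chd8 at 0.09. Chd1 had the highest CHD gene value in 10 of 11 settings, the main one included, with Chd8 highest under quantile normalization. Both counts hold many values that had little room to move. Without the filter on dim probes and with the weaker flag, the same CHD probes were used and no CHD value changed. Keeping outlier spots or using the authors' table shifted the CHD values almost equally. The stricter filter changed only Chd2, and the brightest probe per gene changed only Chd2 and Chd6. Both counts therefore bear mainly on the changes of scaling or background correction. The CHD median ran from -0.03, with arrays centred on the median, to 0.05, under cyclic loess. In those settings the median of all genes was -0.0543 and -0.00565. All 11 CHD probes passed each filter but the stricter one, which left 10 by its construction.

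Counts over all probes depended on the filter and the correction. Against 40 higher and 34 lower in Baf53b-expressing cells, they were 847 and 490 without the filter on dim probes, 2 and 4 with the stricter filter, 494 and 260 with the weaker flag, and 0 and 2 under normexp. The split also turned with arrays centred on the median (37 and 42), by quantile normalization (32 and 53) and by cyclic loess (36 and 46). The median of the Chd8 partners moved to 0.0134 under quantile normalization, from -0.0521; the cause was not tested. No paired analysis was possible because each condition had a single array, which also meant that leaving out a replicate could not be tried. Dim probes limit what can be measured, and 1 of the 11 CHD probes lay in the dimmest of 5 brightness classes.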
